A study of Homo sapiens with 4 samples.

Results

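In single MCF10A cells, 10 genes are described, namely the aldo-keto reductases AKR1B1, AKR1B10, AKR1C1, AKR1C2 and AKR1C3, and NQO1, GCLM, TXNRD1, SRXN1 and HMOX1, which are known targets of the transcription factor NRF2. They were chosen by name, as 10 of the 19577 genes in the count tables, and all 10 had a row there. The question was whether AKR1B1 follows the NRF2 targets or the markers of the epithelial-to-mesenchymal transition (EMT) across cells and plates. MCF10A is an untransformed human mammary epithelial line. Cells carrying an H2B-GFP marker were seeded at 10000 per patch, grown for 6 days and phototagged in bands with the dyes JF646 and JF549. Both groups shared the line, the marker, the culture and the dyes and differed in band width, which was 1000 to 1500 μm in the 2 low-resolution replicates and 250 μm in the 2 high-resolution replicates. Each replicate gave 1 SORT-seq plate of 384 wells, and the plate is the unit compared. Whether a replicate was a single patch or a pool of patches is not stated. Live single cells were sorted into the plates. The paper profiled outer, middle and inner cells, of which the outer and middle populations were phototagged. At high resolution the inner population was the inside of the patch and not a band of 250 μm. The band of a cell was not used here, so every value is for a plate's sorted mix of cells of 1 cell line, and that mix was set by the sort.

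Aldo-keto reductases are NADPH-dependent enzymes that reduce aldehydes and ketones. AKR1B1 is aldose reductase, which converts glucose to sorbitol in the polyol pathway, while the AKR1C enzymes reduce steroids, prostaglandins and lipid aldehydes. NRF2 is held at a low level by KEAP1, and oxidants or electrophiles release it to bind antioxidant response elements (AREs) in front of genes for glutathione synthesis, thioredoxin recycling, quinone reduction and haem breakdown. In EMT, epithelial cells lose adhesion molecules such as CDH1 and EPCAM and gain mesenchymal proteins such as VIM and FN1.

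The start regions of 5 members are shown because AKR1B1, AKR1C1 and AKR1C2 were set beside GCLM and TXNRD1, whose windows hold the letters of an ARE (1 of the 2 windows of AKR1B1 and of TXNRD1 is shown). Each run is the 250 bases before a RefSeq start on GRCh38.p14, read 5′ to 3′ along the gene, with capitals marking the ARE core TGACNNNGC on either strand.
AKR1B1, chr7:134459101-134459350, minus strand: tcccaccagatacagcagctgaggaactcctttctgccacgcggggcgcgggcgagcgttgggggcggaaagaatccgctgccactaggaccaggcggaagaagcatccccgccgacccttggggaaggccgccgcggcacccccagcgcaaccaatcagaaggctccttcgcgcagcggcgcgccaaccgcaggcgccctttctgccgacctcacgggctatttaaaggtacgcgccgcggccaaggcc
AKR1C1, chr10:4963165-4963414, plus strand: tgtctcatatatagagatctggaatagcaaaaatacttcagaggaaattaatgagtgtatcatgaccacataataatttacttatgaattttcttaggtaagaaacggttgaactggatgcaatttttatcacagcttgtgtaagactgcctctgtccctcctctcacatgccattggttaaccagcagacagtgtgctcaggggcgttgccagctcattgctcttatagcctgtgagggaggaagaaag
AKR1C2, chr10:5003858-5004107, minus strand: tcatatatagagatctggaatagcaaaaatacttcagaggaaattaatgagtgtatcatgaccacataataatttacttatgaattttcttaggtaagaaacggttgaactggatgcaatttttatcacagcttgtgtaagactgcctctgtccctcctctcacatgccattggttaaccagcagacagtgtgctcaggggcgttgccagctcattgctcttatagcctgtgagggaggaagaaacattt
GCLM, chr1:93909431-93909680, minus strand: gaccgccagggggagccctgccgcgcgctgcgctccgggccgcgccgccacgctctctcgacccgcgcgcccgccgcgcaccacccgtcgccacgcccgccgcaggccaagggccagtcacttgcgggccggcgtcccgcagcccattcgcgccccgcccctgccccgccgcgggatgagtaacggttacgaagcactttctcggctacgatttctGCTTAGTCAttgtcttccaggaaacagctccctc
TXNRD1, chr12:104286782-104287031, plus strand: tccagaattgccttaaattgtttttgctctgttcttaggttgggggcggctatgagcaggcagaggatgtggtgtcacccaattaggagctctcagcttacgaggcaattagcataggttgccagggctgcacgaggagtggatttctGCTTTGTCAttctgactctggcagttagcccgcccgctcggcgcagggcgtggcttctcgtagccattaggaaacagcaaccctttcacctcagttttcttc
A window of 300 bases, with 50 bases past the start, was given for 8 of the 10 members (11 windows), and not for AKR1B10 and HMOX1. The ARE core was found in the windows of 2 of the 8, GCLM and TXNRD1, and in 13.3% of all 35116 promoter windows. The former counts genes, some with more windows than others, and the latter counts windows, so the shares are not like measures. The AP-1 motif TGANTCA was found in none of the 8 and in 7.71% of all windows, and 0.561% of all windows held both motifs overlapping. A window of this length says nothing of elements farther away. The windows of AKR1C1 and AKR1C2 were identical at 98.6% of 292 aligned bases, against 78% for AKR1C1 and AKR1C3. Of the AKR1C3 windows, only that at chr10:5048531-5048830 was aligned.

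The plates held between 11709628 and 14992348 counts, which are UMIs (unique molecular identifiers, one per captured transcript) corrected for UMIs drawn more than once. Between 271 and 293 cells per plate passed the filter, with a median of 30520 to 41248 counts per cell. Their median mitochondrial share was 28.4% to 31.2%. The paper names the same filter limits and reports more cells in each experiment, a difference that was not examined. The basal keratins KRT5 and KRT6A were found in 99.3% to 100% of cells of every plate. KRT17 was found in 92.1% to 96.9% and KRT14 in 43.9% to 77.3%. The basal gene LAMB3 was found in 95.2% to 98.6%, while the basal regulator TP63 was found in 2.58% to 4.12%. The leukocyte marker PTPRC and the fibroblast collagen COL3A1 had at most 5 UMIs in a plate, COL1A1 was found in 17.3% to 27.6% of cells, and the endothelial marker PECAM1 in 28.5% to 47.1%. CDH5, which defines endothelial cells, had at most 2 UMIs in a plate. The file names place low-resolution replicate 1 on a flow cell of its own.

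AKR1B1 was found in nearly every cell. Its level, in counts per 10000 counts of the same plate, was 8.77 and 9.08 in low-resolution replicates 1 and 2, against 14.2 and 13.3 in high-resolution replicates 1 and 2. Both high-resolution plates lay above both low-resolution plates, and 57.1% of all genes compared had plates that did not overlap. It was found in 96.7% to 99.7% of cells, yet the tenth of cells that had the most AKR1B1 held 43.5%, 42.6%, 31.1% and 34.5% of its UMIs in that order of plates. With every cell thinned to 10000 UMIs, the variance of AKR1B1 was 9.38 to 14.1 times its mean. This ratio was 10.5 to 13.3 for the abundant keratin KRT5 and 12.6 to 20.4 for KRT6A. Over 8031 genes, most of them less abundant, its median was 1.11 to 1.14 and its 90th percentile 1.51 to 1.60.

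AKR1B10, the closest relative of AKR1B1 among the 10, was near the limit of detection, with 13, 14, 10 and 12 UMIs in the 4 plates and at least 1 UMI in 3.41% to 4.12% of cells. That share is close to the 1.37% to 3.78% seen for the oestrogen receptor gene ESR1, so little can be read from AKR1B10. AKR1C2 was at 1.53, 1.49, 1.34 and 1.65 counts per 10000, AKR1C3 at 0.918, 0.856, 0.867 and 0.972, and AKR1C1 at 0.291, 0.320, 0.256 and 0.352. The counts of these 3 genes are uncertain relative to each other, since they are close copies. Of the stretches of 50 bases in the last 500 bases of the longest coding AKR1C2 transcript, 88.9% occur in an AKR1C1 transcript. For AKR1C3, 27.1% occur in AKR1C2 and 16% in AKR1C1. For AKR1C1, 0% occur in AKR1C2 and 0% in AKR1C3. The 3′ end of AKR1B1 shares no such stretch with the other AKR1B or AKR1C genes.

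Among the NRF2 targets, NQO1, a quinone reductase, was at 2.74, 2.17, 2.39 and 2.36 counts per 10000, and TXNRD1, which recycles thioredoxin, at 2.04, 2.33, 1.65 and 1.79. GCLM, the modifier subunit of the enzyme that starts glutathione synthesis, was at 0.794, 0.741, 0.629 and 0.706. SRXN1, which repairs over-oxidised peroxiredoxins, was at 0.494, 0.458, 0.368 and 0.497. These 4 genes were spread over most cells, with UMIs in 62.9% to 98.3% of them. HMOX1, which breaks down haem, was at 0.349, 0.526, 0.498 and 0.716 counts per 10000. UMIs of HMOX1 appeared in 30.6%, 43.9%, 47.4% and 59% of cells, and the tenth of cells richest in it held 55.9% to 78.3% of them, so it was concentrated in fewer cells. Levels of different genes are counts of 3′ ends and were not scaled for length.

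**Figure D1:**
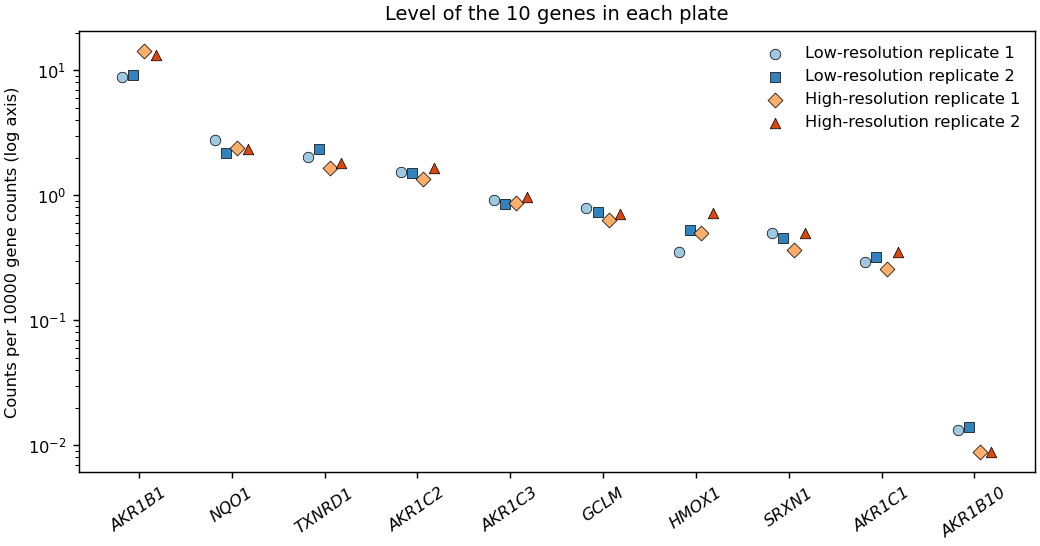
Level of each of the 10 genes in each of the 4 plates, in counts per 10000 gene counts on a log axis, with 1 point per plate. For AKR1B1 both high-resolution plates (14.2 and 13.3) lay above both low-resolution plates (8.77 and 9.08). For TXNRD1, GCLM and AKR1B10 both lay below them, and the plates of the other members were mixed. Of all genes compared between the groups, 57.1% had plates that did not overlap.

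To place each cell along EMT, an EMT score was computed from 64 epithelial and 96 to 99 mesenchymal genes of the study's lists, as the mesenchymal minus the epithelial score of gene set variation analysis (GSVA). Neither list holds any of the 10 genes. The NRF2 score was the mean z-score within a plate of the 9 members other than AKR1B1, leaving out any member that was set against it. Relations are given as Spearman's rho across the 271 to 293 cells of 1 plate. They are descriptions with no p-value, because cells of a plate share their library and the genes were chosen with results of these data known.

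Over all cells of a plate, AKR1B1 followed the EMT score more closely than the NRF2 score in each of the 4 plates. Its rho with the EMT score was 0.71, 0.67, 0.67 and 0.76 (mean 0.70 ± 0.043, SD, n = 4 plates), and with the NRF2 score 0.58, 0.54, 0.51 and 0.62 (0.56 ± 0.045). The difference was 0.13, 0.12, 0.15 and 0.14, or 0.14 ± 0.0134. Both relations were positive in every plate, so AKR1B1 did not follow one axis alone. The NRF2 score itself had a rho of 0.43, 0.41, 0.28 and 0.45 with the EMT score. With both scores taken into account, the partial rho of AKR1B1 was 0.63 (0.58 to 0.68) with the EMT score given the NRF2 score and 0.44 (0.40 to 0.47) with the NRF2 score given the EMT score.

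The gap depended on which NRF2 targets were scored. With NQO1, GCLM, TXNRD1, SRXN1 and HMOX1 alone, that is without the AKR1C genes, the rho of AKR1B1 with the NRF2 score was 0.40, 0.36, 0.34 and 0.40. With 26 other NRF2 targets, none of them a member, it was 0.37, 0.46, 0.43 and 0.46. An EMT score made of only VIM and FN1 minus CDH1 and EPCAM, an alternative chosen after seeing the data, had a rho of 0.69, 0.64, 0.68 and 0.74 with AKR1B1, above that of the NRF2 score in all 4 plates. The NRF2 score rests on sparse genes, and at 10000 UMIs per cell its rho with AKR1B1 averaged 0.44. The part of this sparseness in the gap was not tested.

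**Figure D2:**
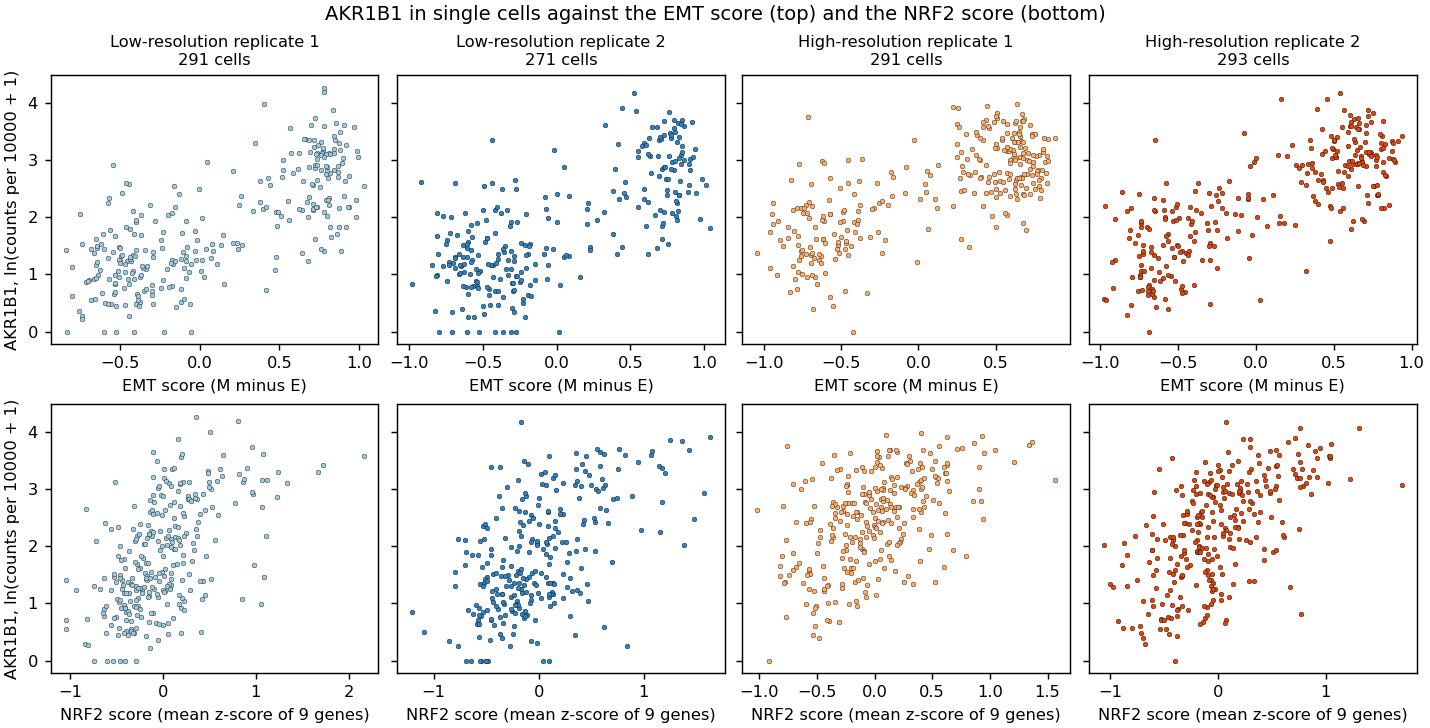
AKR1B1 in single cells, as the natural log of counts per 10000 plus 1, against the EMT score (top row) and the NRF2 score (bottom row), with 1 panel per plate and 1 point per cell. Cells formed a low and a high cloud along the EMT score with AKR1B1 mostly higher in the high cloud, and a single spread cloud along the NRF2 score. The coefficient rho was 0.67 to 0.76 in the top row and 0.51 to 0.62 in the bottom row.

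On either side of an EMT score of 0, the order of both relations turned in 7 of 8 sets of cells. It did not turn when cells were split by the NRF2 score. Because cells lay on both sides of an EMT score of 0, with 5.84% to 15.5% of cells within 0.2 of it, the sides were also taken apart, a split chosen after seeing the data. AKR1B1 was at 3.18, 3.39, 6.67 and 5.92 counts per 10000 below 0 and at 15.3, 17, 20.9 and 20.8 above it, which is 4.81, 5.01, 3.13 and 3.51 times as much. Among cells below 0, its rho with the EMT score was 0.12, 0.01, 0.28 and 0.42, and with the NRF2 score 0.36, 0.35, 0.43 and 0.39. Among cells above 0, these were 0.39, 0.34, 0.06 and 0.24 with the EMT score, and 0.55, 0.51, 0.42 and 0.57 with the NRF2 score. The NRF2 score had the higher rho in 7 of these 8 sets of cells, the exception being cells below 0 in high-resolution replicate 2. A split on the EMT score narrows that score's range and not that of the NRF2 score to the same degree. When cells were instead split at the median NRF2 score, the rho with the EMT score was 0.42 to 0.72 and that with the NRF2 score 0.26 to 0.49, with the EMT score higher in all 8 groups of cells.

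Cells above both medians had the most AKR1B1. In low-resolution replicate 1, AKR1B1 was at 2.74 counts per 10000 in cells below both medians and at 3.78 in cells above the NRF2 median only. It was at 9.41 in cells above the EMT median only and at 17.7 in cells above both. The same order held in all 4 plates, with 2.3, 4.53, 9.70 and 17.6 in low-resolution replicate 2, 6.11, 10.9, 16.2 and 23.6 in high-resolution replicate 1, and 5.00, 7.44, 13.8 and 24.4 in high-resolution replicate 2. Being above the EMT median alone thus went with more AKR1B1 than being above the NRF2 median alone in each plate.

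The other 9 genes were less closely tied to the EMT score, by differing amounts. All of them had fewer counts than AKR1B1, and the part of this in their lower rho was not tested. Of the genes outside the EMT lists, 7959 had a UMI in 20% or more of the cells in each plate. Among these, 375 (4.71%) had a rho with the EMT score of at least 0.3 in size and of 1 sign in all 4 plates, and 184 (2.31%) were positive and 191 (2.4%) negative. Of the 10 members, 9 could be counted and AKR1B1 alone passed. Its mean rho ranked 7th of 7959. HMOX1 lay just outside, with rho of 0.31, 0.2999, 0.35 and 0.35, and so did TXNRD1 with 0.44, 0.36, 0.2988 and 0.29. Since AKR1B1 was chosen with results of these data known, nothing is read from its own count.

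AKR1C1 and AKR1C3 had uneven relations to the EMT score. Their rho was 0.37, 0.41, 0.18 and 0.41 for AKR1C1 and 0.26, 0.42, 0.26 and 0.44 for AKR1C3, and both were lower in high-resolution replicate 1 than in replicate 2 of that experiment. AKR1C2 followed the NRF2 score, with 0.42, 0.43, 0.33 and 0.39, more than the EMT score, with 0.20, 0.19, 0.00454 and 0.30. For these 3 genes the mean rho with the NRF2 score (0.38, 0.39 and 0.41 for AKR1C1, AKR1C2 and AKR1C3) came from a score that holds the other AKR1C genes. With NQO1, GCLM, TXNRD1, SRXN1 and HMOX1 alone it was 0.26, 0.23 and 0.26. AKR1B10 had a mean rho of -0.10 with the EMT score, from 10 to 14 UMIs per plate.

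NQO1, GCLM and SRXN1 followed the EMT score little. Their mean rho with it was 0.11 (0.04 to 0.21), 0.05 (-0.02 to 0.12) and -0.01 (-0.05 to 0.07). With the NRF2 score they reached 0.28, 0.15 and 0.05, so SRXN1 was barely related to either. TXNRD1 was the classical target nearest to AKR1B1, with a mean rho of 0.35 with the EMT score and 0.30 with the NRF2 score. HMOX1 also followed the EMT score, at 0.33, more than the NRF2 score, at 0.23. Within the 8 sets of cells on either side of an EMT score of 0, rho with the NRF2 score was above that with the EMT score in all 8 for AKR1C1, AKR1C2, AKR1C3, NQO1 and GCLM, in 7 for TXNRD1 and in 5 for SRXN1 and HMOX1. HMOX1 was at 5.9, 6.57, 4.29 and 2.00 times its level below 0 in cells above 0, and AKR1C1 at 3.77, 5.33, 2.79 and 5.04 times.

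**Figure D3:**
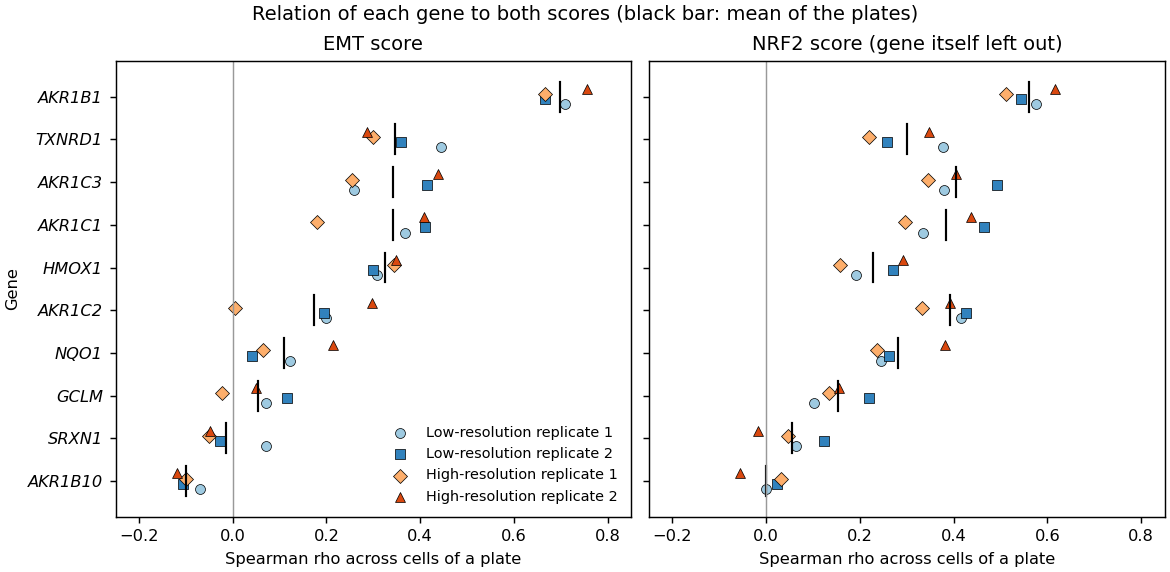
Spearman's rho of each gene with the EMT score (left) and the NRF2 score (right) across the cells of a plate, with 1 point per plate and a black bar at the mean of the 4 plates. AKR1B1, which also had the most counts of the genes shown, stood apart from the others on both scores. NQO1, GCLM, SRXN1 and AKR1B10 lay nearest 0 on the left.

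Cells of each plate were also divided into terciles of the EMT score. AKR1B1 was at 3.06, 3.19, 5.67 and 4.52 counts per 10000 in the lower tercile and at 17.7, 19.5, 20.5 and 22.7 in the upper tercile, a ratio of 5.79, 6.10, 3.62 and 5.01. In the middle tercile the experiments parted, with 6.3 and 5.49 at low resolution against 18.2 and 12.8 at high resolution. Terciles were set within each plate and scores were fitted within each experiment, so a tercile is not the same range of scores in both. HMOX1 had ratios of 6.38, 5.55, 5.05 and 2.82, close to those of AKR1B1, and AKR1C1 had 4.05, 6.08, 2.35 and 4.99. The ratios were 1.66 to 3.04 for AKR1C3, 1.5 to 2.21 for TXNRD1, 1.05 to 1.70 for AKR1C2, 1.10 to 1.32 for NQO1, 1.01 to 1.32 for GCLM and 0.807 to 1.10 for SRXN1. The order of genes by this ratio therefore ran across the line between aldo-keto reductases and other NRF2 targets.

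**Figure D4:**
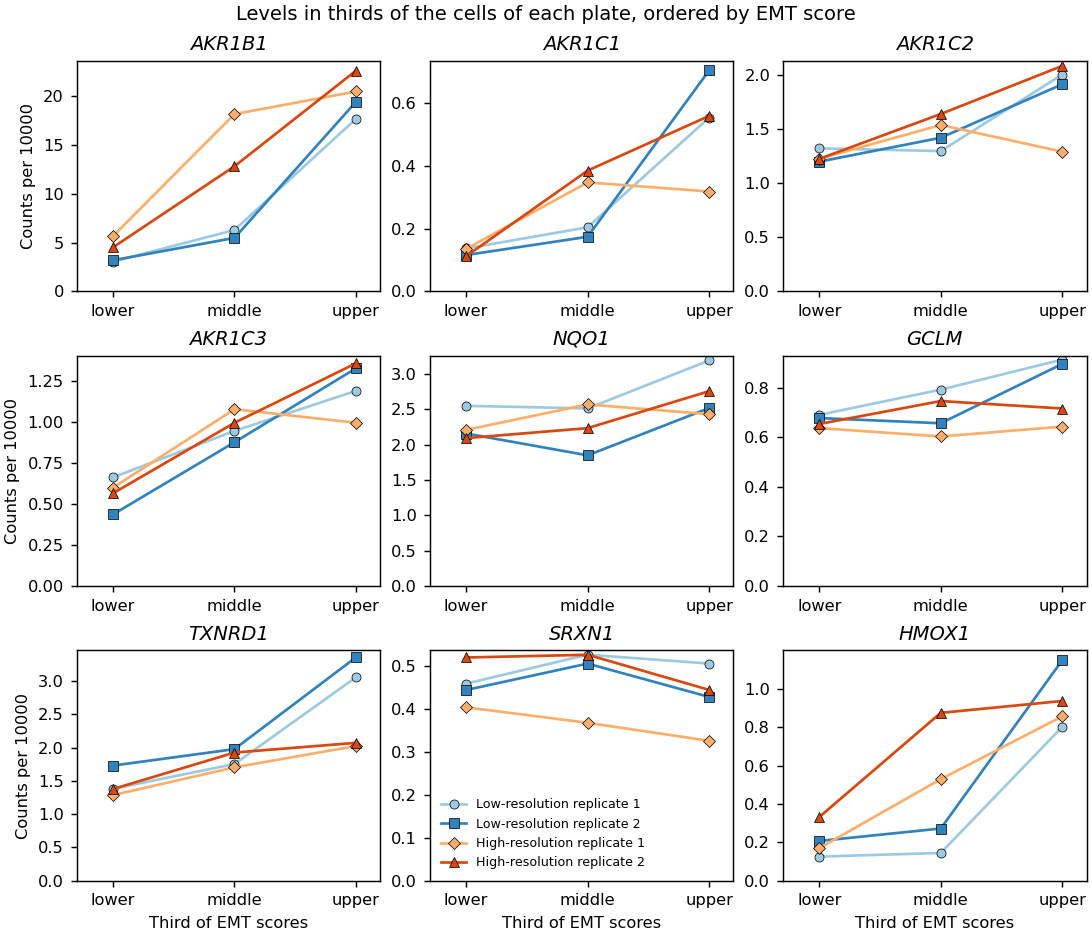
Level in counts per 10000 in the lower, middle and upper tercile of EMT scores of each plate, for the 9 members other than AKR1B10, with 1 line per plate and axes that start at 0. AKR1B1, AKR1C1 and HMOX1 had upper terciles 2.35 to 6.38 times their lower terciles, while SRXN1 was between 0.807 and 1.10 times.

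AKR1B1 was closer to EMT markers than to most NRF2 targets gene by gene. Its mean rho was 0.63 with FN1, 0.51 with VIM, -0.62 with CDH1 and -0.62 with EPCAM. With the members it was 0.53 for AKR1C1 (0.41 to 0.61), 0.49 for AKR1C3, 0.38 for AKR1C2, 0.34 for TXNRD1 and 0.31 for HMOX1. It fell to 0.22 for NQO1, 0.08 for GCLM, 0.03 for SRXN1 and -0.06 for AKR1B10. The 9 other members were only loosely tied to each other: over their 36 pairs the median of the mean rho was 0.10, and the highest were AKR1C2 with AKR1C3 (0.47) and AKR1C1 with AKR1C2 (0.42). AKR1C1 with AKR1C3 had 0.34. Reads can be shared within all 3 of these pairs, though the 3′ end of AKR1C1 itself held no shared stretch.

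**Figure D5:**
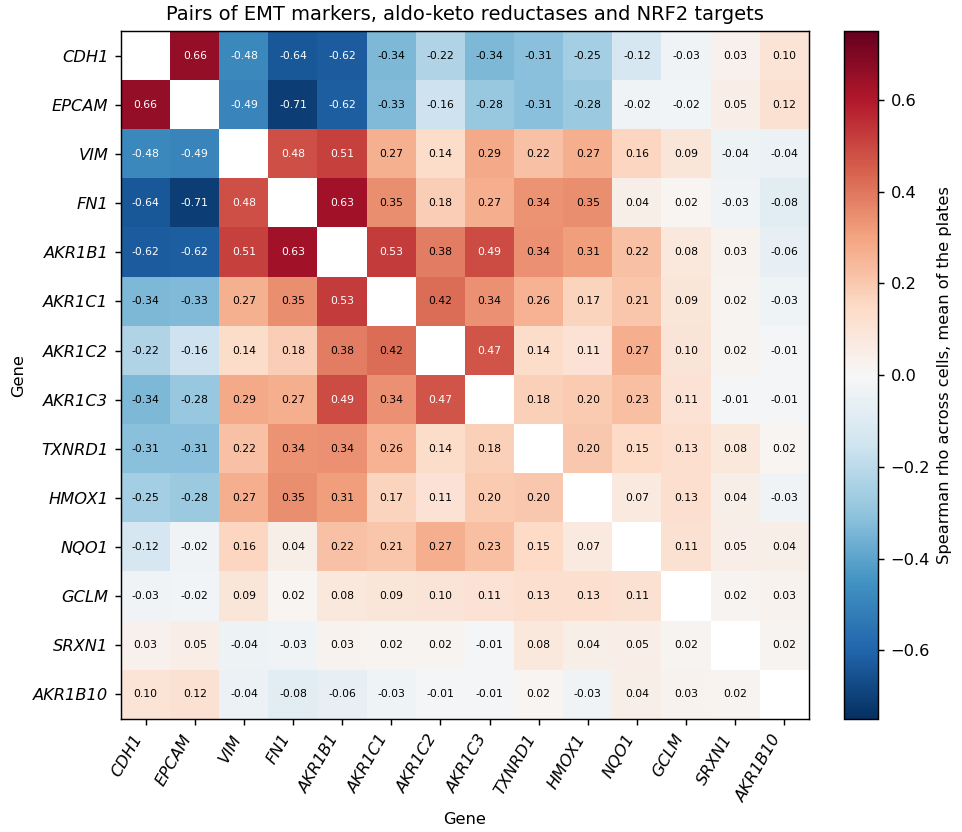
Mean over the 4 plates of Spearman's rho across cells for each pair of the 10 genes and 4 EMT markers, on a scale from blue (negative) to red (positive). AKR1B1 had -0.62 with both epithelial markers and 0.51 and 0.63 with VIM and FN1, and GCLM, SRXN1 and AKR1B10 formed pale rows.

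Genes outside the 10 whose cell-to-cell pattern was most like that of AKR1B1 were found by mean rho over the 4 plates. Of 8031 genes, 265 (3.3%) reached 0.3 in size with 1 sign in all plates, 1.69% positive and 1.61% negative. With the NRF2 score 30 of 8024 (0.374%) did so, 20 positive (0.249%) and 10 negative (0.125%). Among the members, AKR1C1 and AKR1C3 reached it with AKR1B1. The highest were EMP3 (0.70), TIMP1 (0.68), SERPINE2 (0.66), HTRA1 (0.63), FN1 (0.63), MT2A (0.61), S1PR3 (0.60), SDCBP (0.59), ITGB1 (0.58) and ITGA5 (0.58). They include an inhibitor of matrix proteases (TIMP1), a serpin (SERPINE2), a secreted serine protease (HTRA1), a metallothionein (MT2A) and both chains of the fibronectin receptor (ITGB1 and ITGA5). Genes at the low end were FXYD3 (-0.68), AP1M2 (-0.66), KLK5 (-0.66) and AZGP1 (-0.65), of which AP1M2 encodes a sorting adaptor of epithelial cells and KLK5 a serine protease of the epidermis. In the same order of likeness AKR1C1 stood at 28 of 8023 genes, AKR1C3 at 43 and AKR1C2 at 103. TXNRD1 stood at 155, HMOX1 at 223 and NQO1 at 540. Much lower were GCLM at 2246, SRXN1 at 3768 and AKR1B10, near the limit of detection, at 6374.

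Of 26 other NRF2 targets, 22 could be counted, and 3 followed the EMT score upward and 0 downward, against 2.31% and 2.4% of all 7959 genes. Those upward were FTL, the ferritin light chain (mean rho 0.50 with the EMT score), ABCC3, an exporter of conjugates (0.38), and UGDH, which makes UDP-glucuronate (0.38). The median over the 22 was 0.05 with the EMT score and 0.15 with the NRF2 score, against a median of 0.02 with the EMT score over 7959 genes. The lowest mean rho with the EMT score were those of IDH1, an isocitrate dehydrogenase (-0.35), PGD, of the pentose phosphate pathway (-0.25), and BLVRB (-0.24), named after their values were seen. FTL had a mean rho of 0.57 with AKR1B1. Of 8 regulators of the pathway, 7 could be counted and 0 followed the EMT score, against 4.71% of all genes. This count sets them apart in no way. Their mean rho ran from -0.09 for MAFF to 0.36 for SQSTM1 (0.23 to 0.52), with NFE2L2, which encodes NRF2, at 0.11, KEAP1 at 0.04 and BACH1 at 0.22.

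Other cell properties moved with AKR1B1. Its rho with the mitochondrial share of counts was -0.40, -0.25, -0.35 and -0.36, and that of the EMT score was -0.42, -0.30, -0.40 and -0.48. Its rho with the cell's total count was between -0.02 and 0.13. Given total count and mitochondrial share, the partial rho of AKR1B1 averaged 0.67 with the EMT score and 0.51 with the NRF2 score, so both were nearly as large with these held. HMOX1 had a rho of 0.16 to 0.30 with the total count.

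Across plates, AKR1B1 was the member that differed between the experiments. Counts were summed over the cells of each plate and compared with edgeR, which called 1547 of 12437 genes (12.4%), 778 of them higher (6.26%) and 769 lower (6.18%) in the high-resolution plates. In CPM, counts scaled by the TMM-adjusted library size, AKR1B1 was at 841 and 918 at low resolution against 1434 and 1361 at high resolution, and the groups do not overlap. AKR1B1 was chosen with earlier results of these data known, so its p-value is not that of a gene picked blind. The log2 fold change was 0.66 ± 0.106 (SE), with an adjusted p of 0.00233 by edgeR's quasi-likelihood test. Without low-resolution replicate 1, the plate on its own flow cell, it was 0.60 with an adjusted p of 0.0208 by edgeR, in a fit that takes its spread from the high-resolution plates alone and assumes that the lone low-resolution plate varies like them. Band width, patch, experiment and the mix of bands that was sorted onto each plate cannot be told apart here, nor can more RNA per cell and more cells of a kind.

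The other 9 members did not pass this test, so 1 of 10 was called, against 12.4% of all genes. HMOX1 was at 33.4 and 53.2 CPM at low resolution against 50.4 and 73 CPM at high resolution, which overlap (log2 fold change 0.50 ± 0.205, adjusted p 0.13 by edgeR). Without high-resolution replicate 1 its log2 fold change was 0.74 with an adjusted p of 0.00103 by edgeR, and without low-resolution replicate 1 it was 0.21 with 0.558, and it was also called with all 4 plates under a replicate block or with no filter on low counts, so its call depended on the plates and on the model. TXNRD1 was at 195 and 235 CPM against 167 and 183, without overlap (-0.31 ± 0.119, adjusted p 0.109 by edgeR). AKR1C1, AKR1C2, AKR1C3 and NQO1 had log2 fold changes of 0.03, 0.01, 0.09 and -0.01, and GCLM, SRXN1 and AKR1B10 of -0.16, -0.10 and -0.58, the last on 10 to 14 UMIs per plate. In 4 of the 10 members, AKR1B1, AKR1B10, GCLM and TXNRD1, the plates did not overlap between the groups, against 57.1% of all genes. The median log2 fold change of the 10 was 0.001, against -0.02 over all genes tested.

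Of the 4 EMT markers, 3 differed between the experiments. VIM (0.94, adjusted p 0.00117) and FN1 (0.77, adjusted p 0.00127) were higher and CDH1 (-0.68, adjusted p 0.00321) was lower in the high-resolution plates by edgeR, while EPCAM had -0.11 with an adjusted p of 0.566. Of 24 other NRF2 targets tested, 6 were called, against 12.4% of all genes (6.26% higher and 6.18% lower): 3 rose (TXN, a thioredoxin, by 0.38, UGDH by 0.46 and CBR1, a carbonyl reductase, by 0.43 on the log2 scale) and 3 fell. The latter were GCLC, the catalytic partner of GCLM (-0.56), GSR, the glutathione reductase (-0.47), and BLVRB, a biliverdin reductase (-0.67). Of 7 regulators, MAFF rose (0.71) and SQSTM1 fell (-0.39), while NFE2L2 had -0.32 with an adjusted p of 0.101 and KEAP1 -0.04 with 0.885 by edgeR. The median log2 fold change of the 24 targets was -0.07.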

How the data were processed

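Single cells of MCF10A patches were sequenced by SORT-seq on 4 plates. The authors deposited expected counts per gene and well, which are distinct UMIs corrected for a pool of 4096 UMI sequences, without scaling. The submitters' processing notes name STAR 2.7.3a, Seurat 4 and the build hg38. Undoing the correction gave whole UMIs to within 1e-09 for all values, and these were used for thinning.

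Wells were kept at 2000 to 9000 features and a mitochondrial share below 40%, spike-in rows did not enter library sizes, and values were log-normalized to 10000 per cell. The EMT score used a reimplementation of GSVA (Gaussian kernel, both plates of an experiment fitted at once, Python 3.11.15, numpy 2.4.6, scipy 1.17.1). Doublets were not called beyond the limit of 9000 features. For the plate comparison, expected counts were added up by plate, rounded and passed to edgeR 4.0.16 (R 4.3.3) with filterByExpr, TMM, the quasi-likelihood test and Benjamini-Hochberg adjustment; SEs follow from the fold change and F. DESeq2 1.42.0 was an alternative, beside other scores, depths, filters and plates left out.

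This comparison was tested on simulated data: of 200 genes changed by 2-fold, edgeR recovered 83.5% at a dispersion of 0.01 (12277 genes, 3 false calls) and 15% at 0.05 (12252 genes, 0 false calls); the common dispersion of the real plates was 0.0112.

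The members and all gene lists were chosen with earlier results of these data known. Besides the 10 members, the named genes are the 10 most and 5 least like AKR1B1 by mean rho (1 of the latter is not reported here), 4 EMT markers, NFE2L2, KEAP1, SORD, and listed genes past a threshold (up to 6 per list). Each p-value of the plate comparison tests a difference between the groups. It is set against the spread between these plates, which edgeR estimates with help from other genes. Intervals of shares are not printed, and precision is limited by 271 to 293 cells per plate and by the UMIs of each gene. Band positions were not analysed here.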

Additional observations from a re-analysis of the deposited data

How the results depend on the processing

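The rho of AKR1B1 with the EMT score moved by less than the spread between plates under all 7 planned changes to score, depth and filter, and was 0.68 to 0.71 with each plate left out. Its rho with the NRF2 score was 0.44 in thinned cells, 0.38 with the 5 classical targets and 0.43 with the other targets, and 0.54 to 0.58 with a plate left out. The difference, 0.14, was 0.15 with mean z-scores, 0.25 in thinned cells, 0.10 without the mitochondrial limit, 0.16 with mitochondrial rows left out of library sizes, 0.15 with the cell cycle regressed out, 0.12 with listed genes in at least 5% of cells, 0.32 with the 5 classical targets, 0.27 with the other targets and 0.13 to 0.14 with a plate left out. Within the sides of the EMT score (added after seeing the data) it reversed, to -0.17 below 0 and -0.26 above 0, where rho with the EMT score was 0.21 and 0.26 and that with the NRF2 score 0.38 and 0.51. A split on 1 score narrows that score by construction. The rho of the NRF2 score with the EMT score was 0.26 for the other targets and 0.37 to 0.43 with a plate left out, and the ratio of AKR1B1 between terciles was 4.79 to 5.66.

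Genes following the EMT score numbered 783 and 181 at limits of 0.2 and 0.4, 149 in thinned cells, where fewer genes could be counted, and 397 to 435 with a plate left out. Genes following AKR1B1 numbered 581, 131 and 105 under the first 3 of these. For the other 9 members, rho moved by more than 1 SD in 15 of 198 alternatives, mostly in thinned cells.

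Calls between experiments fell to 841 in thinned cells and to between 982 and 1172 with a plate left out, the former without low-resolution replicate 1; 987 were left without high-resolution replicate 2. AKR1B1 was called in each of these fits (log2 fold change 0.60 to 0.73), but with a plate left out the spread comes from the other group's 2 plates alone and the lone plate is assumed to vary like them. The replicate numbers did not pair the plates (correlation of deviations -0.02 over 12437 genes, 2 pairs): a replicate block gave 2023 calls, and with it HMOX1 was called (0.51, adjusted p 0.00739 by edgeR), as it was with no filter on low counts (0.51, 0.00545), without low-resolution replicate 2 (0.88, 0.0211) and without high-resolution replicate 1 (0.74, 0.00103). The block changed no other member's call. Small fold changes turned sign: AKR1C1 was at -0.12 and AKR1C2 at -0.018 in thinned cells, and leaving plates out gave -0.21 to 0.23 for AKR1C1, -0.13 to 0.16 for AKR1C2, -0.13 to 0.13 for NQO1 and -0.32 to 0.10 for SRXN1. The cause was not tested.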

Other observations

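SORD, which converts the sorbitol made by AKR1B1 to fructose, had a rho of 0.05, 0.01, -0.06 and -0.04 with AKR1B1 across cells of the 4 plates. Between the experiments it was at 26 and 27.9 CPM at low resolution against 34.8 and 38.6 CPM at high resolution, without overlap, with a log2 fold change of 0.44 and an adjusted p of 0.0541 by edgeR. NFAT5, the transcription factor of the osmotic stress response that is known to raise AKR1B1, fell by 0.45 on the log2 scale (adjusted p 0.0284 by edgeR), from 59.7 and 59.1 to 43.7 and 44 CPM. Its mean rho with AKR1B1 across cells was 0.03. Of 6 polyol and osmotic genes, 4 were detected in enough cells to be counted and 0 followed the EMT score, against 4.71% of all genes outside the EMT lists. This count says nothing of the polyol and osmotic genes. SORD was among those counted, although it is in the epithelial list and so enters the EMT score.

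Of 7 other aldo-keto reductases, 2 were found in enough cells to be counted, AKR1A1 and AKR7A2, and 0 followed the EMT score (mean rho -0.03 and 0.07), again against 4.71%. Of the 3 tested with edgeR between the experiments, 0 passed the threshold, against 12.4% of all genes.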
